A study of Rattus norvegicus with 12 samples.

Results

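The comparison described here set cultures of newborn rat heart muscle cells exposed to the highest dose of di(2-ethylhexyl) phthalate (DEHP) against cultures exposed to the lowest. It took the 3 arrays labelled DEHP 50 µg/ml and the 3 labelled DEHP 1 µg/ml, which are 6 of the 12 Affymetrix arrays of the series, and left the 3 vehicle arrays and the 3 arrays at 10 µg/ml out of the contrast. Cells of both groups came from Sprague-Dawley pups 2 days old, and all of them from 1 litter. They were grown for 3 days and then kept for 3 days with DEHP in 0.1% dimethyl sulphoxide (DMSO), the solvent that the vehicle cultures received alone. The series title asks for dose dependence, and this contrast asks which transcripts separate its lowest and highest doses. It does not say by itself which of the doses departs from the vehicle, so the vehicle and 10 µg/ml arrays are described beside the results.

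DEHP is a plasticiser of polyvinyl chloride that leaches from medical tubing and blood bags, and its monoester binds peroxisome proliferator-activated receptors (PPARs), nuclear receptors that switch on genes of fatty acid use. Neonatal heart cultures beat on their own and carry, beside the muscle cells, the fibroblasts, endothelial cells and macrophages that survive isolation. Genes are therefore described first by their own role and then by the cell types and pathways they mark.

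Of 14324 genes, 3562 differed between 50 and 1 µg/ml at an adjusted p under 0.05 (24.9% of those tested). At 50 µg/ml 1641 were higher (11.5%) and 1921 were lower (13.4%). Every list count below is to be read against these shares. The arrays of the groups did not overlap for 5860 genes (40.9%), and 3485 of the genes that passed were among them. On single probe sets, including 12245 that carry no symbol or several, 4869 of 27342 passed (17.8%). Most changes were small. The median difference was 0.28 on the log2 scale among the genes that rose and -0.34 among those that fell, 3183 of the 3562 changed by less than 1.5-fold, 37 rose more than 2-fold and 57 fell more than 2-fold. Values below are log2 ratios to the median of the 12 arrays, so that 0 is that median and a difference of 1 is a 2-fold change. Differences are 50 minus 1 µg/ml with their standard error, n = 3 arrays per group, and their adjusted p comes from limma over all genes. Positive values were taken to mean more signal in an array than in the median, since the labels leave this unstated, and the reverse reading would turn every sign below.

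**Figure D1:**
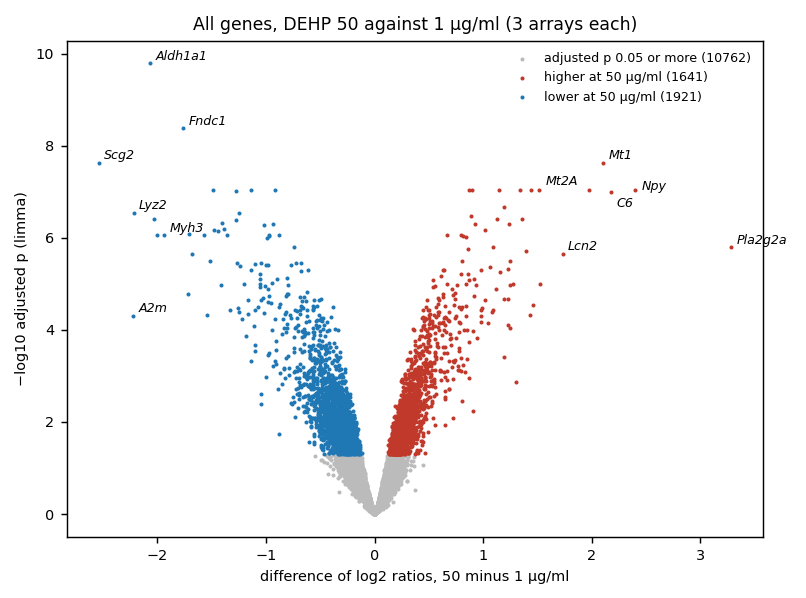
Each point is 1 of 14324 genes, placed by its difference of log2 ratios between 50 and 1 µg/ml (x axis) and by the negative log10 of its limma adjusted p (y axis). Red marks the 1641 genes higher at 50 µg/ml, blue the 1921 lower and grey the 10762 that did not pass, and Pla2g2a and Scg2 lie farthest out on either side.

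These counts depend on single arrays, on the normalization and on the threshold. Without replicate 2 of the 50 µg/ml arrays 1161 genes were lower in place of 1921, and a repeated quantile normalization of the 12 arrays left 2155 genes in all. That step puts the 12 arrays on 1 distribution of ratios, and how far it shrinks differences by itself was not tested. Where a change beyond 1.2-fold was required, 372 genes passed, with 16 macrophage and 10 mitosis genes lower and 4 endothelial and 11 inflammatory genes higher in the lists counted below. Of 184 named genes that passed without it, 86 lost the call there, among them Myh6, Scap, Wt1, Nppa, Bag3 and Rrm2. At that requirement limma called 0 genes higher in the lists of the respiratory chain, mitochondrial fatty acid oxidation, PPARs and targets, calcium cycling, glycolysis, citric acid cycle, peroxisomes, p53, MAP kinase feedback, nerve, red cell, macrophage, DNA replication and heat shock. It called 0 lower in those of DNA replication, heat shock, respiratory chain, peroxisomes, p53, unfolded protein response, microtubule transport, interferon, fatty acid uptake, metals and endothelium. All are counted below without that requirement. The repeated normalization kept the calls of Cpz, Clec5a, Penk, Mfap5, Rgs4, Spry1, Dusp10, Per1, Cdkn1c, Il1rl1, Agt, Atp2b4, Abcg1, Dgat2, Lpin2, Mgst1, Tgfbi, Mmp15 and Plau but made each difference more than 1.5 times smaller, and other genes of the naming rule that it moved that far have their value beside them. Array weights, an estimate of how closely each array follows its group, were 0.483 for replicate 2 at 50 µg/ml and 0.271 for replicate 2 at 10 µg/ml, against 0.707 to 3.77 for the other 10. The values are ratios without a level, so the labelled cell type could be checked only for differences. Of the cardiomyocyte markers Tnnt2 (0.12), Actn2 (0.09) and Ryr2 (0.14) did not pass, and Myl2, Myh6 and Tnni3 were higher at 50 µg/ml. Handling of the cultures and dose cannot be told apart.

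The metallothioneins, small cysteine-rich proteins that bind zinc and other metals and are induced when free metal or oxidants rise, were among the largest differences. Mt1 read -0.22, -0.37 and -0.37 in the 3 arrays at 1 µg/ml and 1.75, 1.72 and 1.88 in the 3 at 50 µg/ml. Mt2A read -0.48, -0.59 and -0.55 at 1 µg/ml and 1.44, 1.30 and 1.58 at 50 µg/ml. In both genes every array at 50 µg/ml lay more than 1.5 above every array at 1 µg/ml. Mt1 rose by 2.10 ± 0.09 (4.3-fold, adjusted p = 2.33e-08) and Mt2A by 1.98 ± 0.10 (3.94-fold, adjusted p = 9.36e-08). Each gene has 2 probe sets, which rose by 2.07 and 2.14 for Mt1 and by 1.81 and 2.14 for Mt2A. Metallothionein copies are close in sequence, so the share of each gene in this signal is uncertain. The vehicle arrays of Mt2A (-0.36, -0.06 and 0.00) lay above all its arrays at 1 µg/ml and below those at 50 µg/ml. Under the repeated quantile normalization the rise of Mt1 was 1.36.

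The promoters of this pair are shown because the genes lie side by side, move together and are known to be switched on by the metal-responsive transcription factor Mtf1 through a short element. The pattern marked for it, TGCNCNC, allows any base at N and can mark more than the element itself. Each window holds 250 bases before and 50 after the start of the gene in RefSeq on rat GRCr8. Capitals mark this pattern on either strand (GNGNGCA where it lies on the other strand). The windows are chr19:10832926-10833225 for Mt1 and chr19:10838659-10838958 for Mt2A, both on the minus strand and printed 5′ to 3′ along the gene.
Mt1 promoter: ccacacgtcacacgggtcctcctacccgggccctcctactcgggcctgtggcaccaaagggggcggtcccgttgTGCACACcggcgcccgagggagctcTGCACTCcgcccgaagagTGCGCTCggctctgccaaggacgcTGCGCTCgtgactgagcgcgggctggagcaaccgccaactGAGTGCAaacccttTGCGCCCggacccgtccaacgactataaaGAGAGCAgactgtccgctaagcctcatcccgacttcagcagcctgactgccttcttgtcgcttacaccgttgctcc
Mt2A promoter: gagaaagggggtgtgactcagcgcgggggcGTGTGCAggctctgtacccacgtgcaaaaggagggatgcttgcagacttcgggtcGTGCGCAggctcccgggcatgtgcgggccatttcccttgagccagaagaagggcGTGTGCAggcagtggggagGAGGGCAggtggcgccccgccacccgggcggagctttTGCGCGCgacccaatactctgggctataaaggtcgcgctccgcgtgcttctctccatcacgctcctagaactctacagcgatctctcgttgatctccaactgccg
The Mt1 window holds 7 matches, 5 on the strand of the gene and 2 on the other, with starts from -176 to -26 counted from the gene's start. The Mt2A window holds 5, 1 on the gene's strand and 4 on the other, from -220 to -55. At least 1 match is found in 49.6% of 33469 windows of this length, at least 5 in 0.669% and at least 7 in 0.108%. The letters are a description of the windows. Of the whole metal list, 23 genes of metallothioneins and of zinc transport, 5 rose, among them both metallothioneins, and 2 fell, against 11.5% and 13.4% of all genes. The count of 5 was 3 after the repeated quantile normalization, and 3 without replicate 1 or 2 at 1 µg/ml or replicate 1 at 50 µg/ml. The zinc exporter Slc30a6 (-0.27) and the importer Slc39a6 (-0.26) fell, whereas the neuronal metallothionein Mt3 (-0.08), the zinc exporter Slc30a1 (-0.01) and Mtf1 (-0.11) did not pass.

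The secreted phospholipase A2 Pla2g2a, an enzyme of inflammation that cleaves phospholipids and kills bacteria, had the largest rise of all genes. Its arrays read -0.36, -0.24 and -0.22 at 1 µg/ml and 2.77, 2.66 and 3.60 at 50 µg/ml, and the vehicle arrays -0.19, 0.63 and -0.04. The groups compared lay far apart, and replicate 3 at 50 µg/ml was the highest array. The difference was 3.28 ± 0.24 (9.73-fold, adjusted p = 1.61e-06). It was 1.94 after the repeated quantile normalization, and its adjusted p was 0.15 when the prior variance was allowed to follow the mean. Lcn2, which encodes lipocalin 2, an iron-withholding protein of the acute response, read -0.32, -0.36 and -0.55 at 1 µg/ml against 1.21, 1.21 and 1.56 at 50 µg/ml. Its vehicle arrays (-0.03, 0.00 and 0.20) all lay between the groups. It rose by 1.73 ± 0.13 (adjusted p = 2.25e-06). Chi3l1, a secreted chitinase-like glycoprotein, rose by 1.52 ± 0.14, from -0.56, -0.63 and -0.53 to 0.84, 0.67 and 1.33. The terminal complement component C6, part of the pore that complement inserts into membranes, read -0.16, -0.17 and -0.10 at 1 µg/ml and 2.01, 1.74 and 2.34 at 50 µg/ml, a rise of 2.17 ± 0.11 (adjusted p = 1.02e-07) that became 1.30 under the repeated normalization.

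A pair of genes of the secretory granule moved in opposite directions. Npy encodes neuropeptide Y, a transmitter of sympathetic nerves that acts on vessels and heart. Its arrays read -0.18, -0.14 and 0.26 at 1 µg/ml, close to the vehicle (-0.25, 0.01 and -0.01), and 2.55, 2.42 and 2.17 at 50 µg/ml. It rose by 2.40 ± 0.12 (5.26-fold, adjusted p = 9.36e-08), or by 1.25 after the repeated quantile normalization. Scg2 encodes secretogranin II, an acidic protein of dense-core granules that is cut into active peptides. It read 0.95, 0.96 and 0.99 at 1 µg/ml and -1.65, -1.67 and -1.42 at 50 µg/ml, with the vehicle arrays (0.11, 0.39 and 0.50) and the arrays at 10 µg/ml (-0.11, -0.43 and -0.19) in between. Scg2 fell by 2.54 ± 0.10 (adjusted p = 2.33e-08), the largest fall of all genes, and 1 µg/ml was itself above the vehicle by 0.63 ± 0.10 (adjusted p = 0.00793). Of 28 genes of neuropeptides, granins and their receptors, 3 rose and 2 fell, or 17.9% of them against 24.9% of all genes. The opioid precursor Penk rose by 0.86 ± 0.07, from -0.02, -0.10 and -0.11 to 0.88, 0.61 and 0.86. Ramp3, the other gene of the list that fell, differed by -0.79 ± 0.13. After the repeated quantile normalization Ramp3 differed by -0.38 (adjusted p = 0.0675). The neuropeptide Y receptors Npy1r (-0.01), Npy2r (-0.02) and Npy5r (-0.06) and the granins Chga (0.09), Chgb (0.11) and Scg3 (-0.05) did not pass.

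Scg2 is known to carry a cyclic AMP response element, TGACGTCA, and its window is printed to show where that element lies in the gene with the largest fall. It spans chr9:88256817-88257116 on the minus strand of GRCr8 (RefSeq), with the element in capitals.
Scg2 promoter: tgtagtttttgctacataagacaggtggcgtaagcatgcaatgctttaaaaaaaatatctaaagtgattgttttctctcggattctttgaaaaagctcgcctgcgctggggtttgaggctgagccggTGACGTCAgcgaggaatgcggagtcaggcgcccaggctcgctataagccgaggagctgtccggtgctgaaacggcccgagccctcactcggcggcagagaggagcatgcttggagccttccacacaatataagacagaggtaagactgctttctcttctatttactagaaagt
The window holds 1 match, which reads the same on both strands and begins at -123. The element is found in 1.83% of the windows.

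Other large rises were those of secreted and contractile proteins. Cpz, a carboxypeptidase that binds Wnt proteins, rose by 1.51 ± 0.07 and the matrix glycoprotein Fbln1 (fibulin 1) by 1.44 ± 0.07. Fbln1 read -0.53, -0.45 and -0.53 at 1 µg/ml, below every vehicle array (-0.15, -0.16 and 0.11), and 0.96, 0.85 and 0.99 at 50 µg/ml. Myl7, the atrial regulatory light chain of myosin, read -0.19, -0.30 and 0.01 at 1 µg/ml and 1.30, 1.15 and 1.26 at 50 µg/ml, a rise of 1.39 ± 0.10 (adjusted p = 1.96e-06, and 0.91 after the repeated normalization). Cthrc1, a secreted protein that limits collagen deposition, rose by 1.15 ± 0.06, from between -0.18 and -0.08 to between 0.96 and 1.08, and by 0.73 after that normalization.

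Among the large falls, Aldh1a1, which makes retinoic acid from retinal, had the smallest adjusted p of all genes (1.62e-10). It read 0.59, 0.67 and 0.63 at 1 µg/ml, 0.14, 0.06 and 0.10 with vehicle, -0.20, -0.07 and -0.06 at 10 µg/ml and -1.49, -1.42 and -1.40 at 50 µg/ml. The 4 groups did not overlap. It fell by 2.07 ± 0.05. Myh3, the embryonic myosin heavy chain, read 1.18, 0.85 and 1.25 at 1 µg/ml and -0.95, -0.67 and -0.93 at 50 µg/ml, a fall of 1.94 ± 0.13, with the vehicle (0.27, 0.79 and 0.56) and then 10 µg/ml (-0.43, -0.34 and -0.27) between them. Or51e1, an olfactory receptor gene, fell by 1.71 ± 0.16, and its replicate 2 at 10 µg/ml (-0.89) lay below its arrays at 50 µg/ml (-0.73, -0.85 and -0.65). Fndc1, a fibronectin-domain protein, read 0.29, 0.46 and 0.46 at 1 µg/ml and -1.31, -1.43 and -1.33 at 50 µg/ml. It fell by 1.76 ± 0.06, and under the repeated normalization its difference was -1.11. A2m, a protease inhibitor of the acute phase, read 0.06, 0.31 and -0.51 at 1 µg/ml, a wide spread, and -2.01, -2.60 and -2.22 at 50 µg/ml. It fell by 2.23 ± 0.24. After the repeated quantile normalization A2m differed by -0.997 (adjusted p = 0.0379). Prss3bl1, named for a serine protease, fell by 2.03 ± 0.12.

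**Figure D2:**
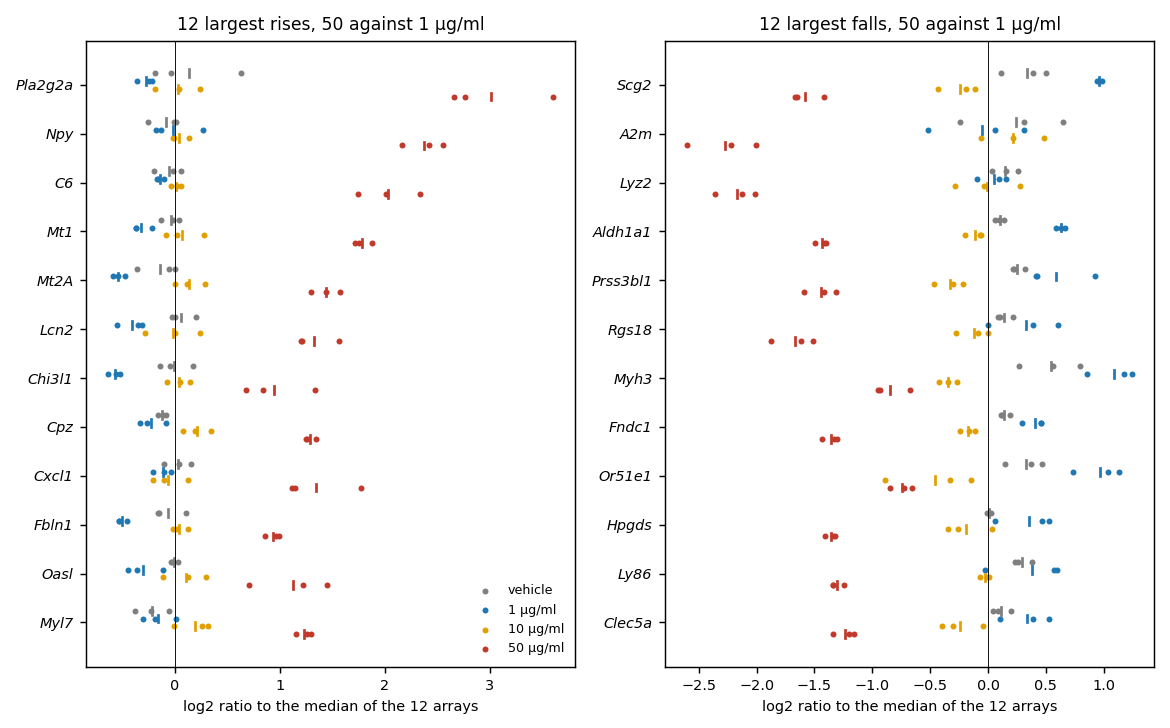
Each dot is 1 array, coloured by group, and each bar the mean of 3 arrays. The x axis gives the log2 ratio to the median of the 12 arrays for the 12 largest rises (left) and the 12 largest falls (right) between 1 and 50 µg/ml. The arrays at 50 µg/ml do not overlap those at 1 µg/ml for any of the 24 genes, which the naming rule required, replicate 2 at 10 µg/ml of Or51e1 lies below its arrays at 50 µg/ml, and the vehicle arrays of Scg2, Aldh1a1, Myh3 and Or51e1 are among those that lie between the compared groups.

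Macrophage genes were lower at 50 µg/ml. Of 32 genes measured, 28 fell, 1 rose and 3 did not pass, against 13.4% of all genes lower. The median difference was -0.85, beside 0.02 over all genes. Lyz2, the lysozyme of macrophages, read 0.10, 0.15 and -0.10 at 1 µg/ml and -2.01, -2.13 and -2.36 at 50 µg/ml, a fall of 2.22 ± 0.13 (adjusted p = 2.83e-07). Csf1r, the receptor on which macrophages depend for survival, read 0.12, 0.02 and -0.25 at 1 µg/ml and -1.36, -1.53 and -1.55 at 50 µg/ml, a fall of 1.44 ± 0.09. Neither gene overlapped between the groups, and at 1 µg/ml replicate 3 was the lowest array for both. The leukocyte phosphatase Ptprc (CD45) fell by 1.48 ± 0.10, the lysosomal protease Ctss by 1.27 ± 0.08, the actin-bundling protein Lcp1 by 1.25 ± 0.07 and the complement recognition gene C1qa by 1.19 ± 0.15. The signalling regulator Rgs18 fell by 2.00 ± 0.13. Outside the list, the toll-like receptor partner Ly86 fell by 1.68 ± 0.13, the prostaglandin D synthase Hpgds by 1.71 ± 0.11 and the lectin receptor Clec5a by 1.57 ± 0.11. The scavenger receptor Cd163 (0.25) did not pass, and the cytokine receptor chain Csf2rb rose by 0.42 ± 0.11, the 1 rise of the list, which was lost without replicate 3 at 1 µg/ml or replicate 3 at 50 µg/ml. The median of the list over its 32 genes was 0.09, 0.03 and -0.20 in the arrays at 1 µg/ml and -0.76, -0.78 and -0.72 at 50 µg/ml, with vehicle arrays at 0.16, 0.21 and 0.16. In a mixed culture, fewer cells of a type and less RNA per cell cannot be told apart. After the repeated quantile normalization 17 genes of the list counted as lower, with Rgs18 at -1.21, Hpgds at -1.10, Lcp1 at -0.69, Ctss at -0.68, Lyz2 at -1.16, Ptprc at -0.81 and Csf1r at -0.74. Cd4, which rat macrophages also carry, fell by 1.11 ± 0.13, whereas the T cell gene Cd3e (0.02) and the B cell gene Cd79b (0.25, adjusted p = 0.052) did not pass. Cd79b passed with a replicate block (adjusted p = 0.0345) and without replicate 1 of the vehicle, replicate 2 at 10 µg/ml or replicate 1 at 50 µg/ml, and Cd4 differed by -0.56 after the repeated normalization. Cd4 was the 1 gene of 10 lymphocyte markers that passed.

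Genes of mitosis were lower too. Of 46 genes of the spindle, kinetochore and mitotic kinases, 39 fell and none rose, against 13.4% and 11.5% of all genes, with a median difference of -0.47. Tpx2, a spindle assembly factor, read 0.40, 0.34 and 0.21 at 1 µg/ml and -0.25, -0.42 and -0.28 at 50 µg/ml, a fall of 0.63 ± 0.06 (adjusted p = 2.42e-05). Its vehicle arrays, at 0.02, 0.00 and 0.00, lay between them. The cytokinesis motor Kif23 fell by 0.51 ± 0.06, and the mitotic kinases Aurka and Plk1 by 0.53 ± 0.06 and 0.48 ± 0.05. Pbk, a mitotic kinase with the widest difference of the list, read 0.62, 0.40 and 0.71 at 1 µg/ml and -0.18, -0.69 and -0.42 at 50 µg/ml, a fall of 1.00 ± 0.16. The mitotic transcription factor Foxm1 (0.00) and the anaphase activator Cdc20 (-0.22) did not pass. For 35 of the 39 genes that fell the vehicle mean lay between the compared means, so that the contrast held a part above and a part below the vehicle. Over all genes that fell it lay between for 1331 of 1921. The median difference from the vehicle was 0.17 at 1 µg/ml and -0.32 at 50 µg/ml. Genes of DNA replication and entry into S phase moved less: 23 of 43 fell and 1 rose, with a median of -0.19. The ribonucleotide reductase subunit Rrm2 read 0.04, -0.01 and 0.22 at 1 µg/ml and -0.36, -0.46 and -0.41 at 50 µg/ml, a fall of 0.49 ± 0.07. The replicative polymerase Pole fell by 0.24 ± 0.05, the cyclin Ccne2 by 0.47 ± 0.09 and the kinase Cdk6 by 0.24 ± 0.05, whereas Cdk4 rose by 0.17 ± 0.06, the 1 rise of the list. That call was lost with a replicate block, after the repeated quantile normalization and without replicate 2 of the vehicle, any array at 1 µg/ml, replicate 1 at 10 µg/ml or replicate 2 or 3 at 50 µg/ml. The count of 23 was 14 after the repeated quantile normalization or without replicate 3 at 1 µg/ml, and 12 without replicate 2 at 50 µg/ml. The cell cycle inhibitor Cdkn1c rose by 0.41 ± 0.05, and Cdkn1a (-0.03) did not pass. Macrophage genes fell in these same arrays, and their part in the cell cycle result was not tested.

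**Figure D3:**
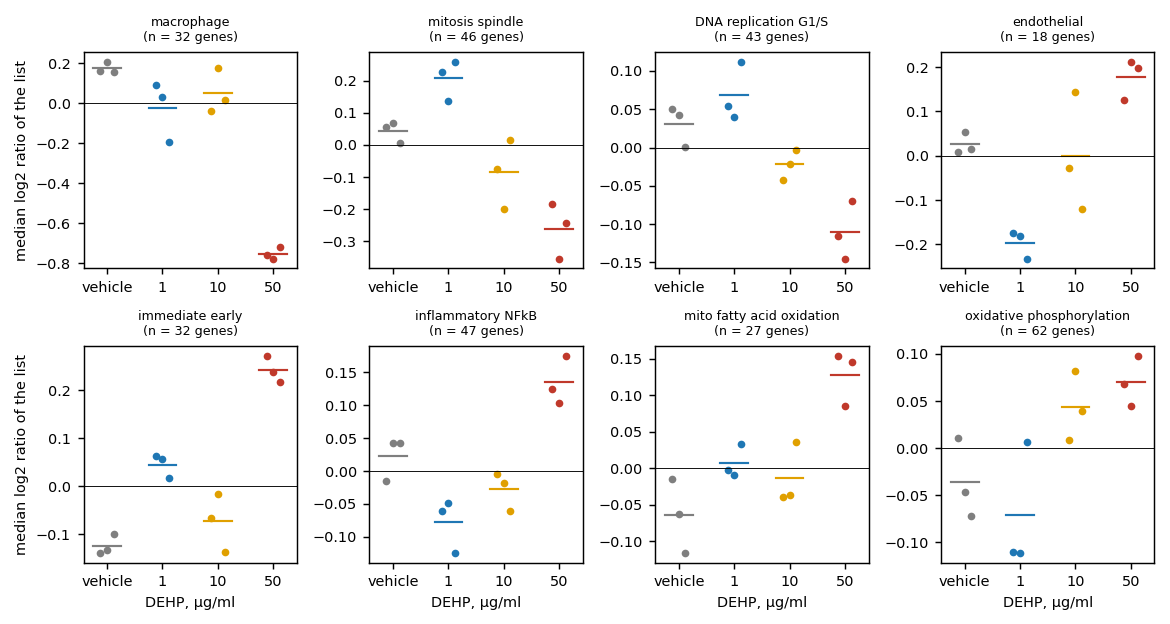
Each dot is the median log2 ratio of a gene list in 1 array, the bars are means of the 3 arrays of a group, and the x axis gives the DEHP dose (the y axes differ between panels). The macrophage medians at 50 µg/ml lie between -0.78 and -0.72, below all other arrays. In the mitosis and endothelial panels the arrays at 1 and 50 µg/ml lie on opposite sides of the vehicle.

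Most endothelial genes went the other way. Of 18 measured, 12 rose and 1 fell, against 11.5% and 13.4% of all genes, with a median difference of 0.37. Cdh5, the cadherin of endothelial junctions, read -0.50, -0.64 and -0.83 at 1 µg/ml and 0.42, 0.66 and 0.62 at 50 µg/ml, with vehicle arrays at -0.09, 0.11 and -0.03. All vehicle arrays lay between the groups. The rise was 1.23 ± 0.12 (adjusted p = 2.09e-05), made up of a difference from the vehicle of -0.66 ± 0.12 at 1 µg/ml and of 0.57 ± 0.12 at 50 µg/ml, comparisons that share the vehicle arrays. The endothelial transcription factor Sox18 rose by 0.79 ± 0.09, the sialomucin Emcn by 0.77 ± 0.12 and the receptor kinase Tie1 by 0.73 ± 0.11. Tie1 read -0.47, -0.52 and -0.64 at 1 µg/ml and 0.04, 0.19 and 0.33 at 50 µg/ml, whose range overlapped the vehicle (0.08, 0.11 and -0.06). The tight junction gene Cldn5 rose by 0.54 ± 0.09 and the nitric oxide synthase Nos3 by 0.62 ± 0.10. The receptor Flt1, the 1 gene that fell (0 after the repeated quantile normalization by limma), differed by -0.31 ± 0.07, and Tek (-0.01) and Plvap (0.11) did not pass. In all 13 genes that passed, the vehicle mean lay between the means compared, against 1191 of 1641 higher and 1331 of 1921 lower over all genes. Pdgfb, a growth factor that endothelial cells send to mural cells, rose by 0.65 ± 0.13, from -0.40, -0.55 and -0.52 to -0.06, 0.21 and 0.32, where it lay among the vehicle arrays (0.14, 0.08 and -0.02).

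Mural cell genes were split. Abcc9 and Kcnj8, the subunits of the ATP-sensitive potassium channel of pericytes, rose by 1.12 ± 0.07 and 0.99 ± 0.10. Kcnj8 read -0.18, -0.25 and -0.17 at 1 µg/ml and 0.94, 0.52 and 0.92 at 50 µg/ml. Rgs5, a G protein regulator that also marks pericytes, read 0.27, 0.19 and 0.13 at 1 µg/ml and -0.74, -0.75 and -0.75 at 50 µg/ml, a fall of 0.94 ± 0.06, and the proteoglycan Cspg4 fell by 0.45 ± 0.06. The list counted 4 higher and 5 lower of 14, and markers of 1 cell type thus moved both ways. After the repeated quantile normalization Abcc9 differed by 0.73 and Rgs5 by -0.60. The marker Myh11 differed by -0.19 and lost its call there (adjusted p = 0.107). It also lost it without any 1 array at 50 µg/ml (0.0678 to 0.1). The count of 5 was 2 under that setting and 3 without replicate 1 at 50 µg/ml. Fibroblast genes were mixed as well, with 5 of 21 higher and 3 lower. The first count was 3 without replicate 1 or 3 of either dose, and the second 5 without replicate 1 at 50 µg/ml. Among the rises were Fbln1 (1.44 ± 0.07) and Cthrc1 (1.15 ± 0.06), given above, and the marker Pdgfra at 0.24. Pdgfra lost its call under each omission that lowered the first count (adjusted p between 0.0582 and 0.0679). Mfap5, a microfibril protein, fell by 0.88 ± 0.06 and the surface glycoprotein Thy1 by 0.80 ± 0.08. The collagen gene Col1a1 (0.09) and the proteoglycan gene Dcn (0.18) did not pass. Of 12 epicardial and mesothelial genes 4 rose, or 33.3% called against 24.9% of all genes. Krt19 rose by 0.36 ± 0.10 with overlapping arrays. It lost the call without replicate 2 or 3 at 1 µg/ml or replicate 2 at 50 µg/ml (adjusted p between 0.0731 and 0.0996). Upk1b rose by 0.54 ± 0.12, but by 0.27 after the repeated quantile normalization (adjusted p = 0.146). The protease inhibitor Slpi rose by 1.30 ± 0.22, from -0.19, -0.49 and -0.64 to 0.46, 0.85 and 1.28, and the transcription factor Wt1 by 0.36 ± 0.07, whereas the mesothelial antigen gene Msln (0.22) did not pass, except without replicate 3 at 1 µg/ml (0.42, adjusted p = 0.0136). Nerve and Schwann cell genes gave 4 higher of 18, or 22.2% called against 24.9% of all genes (2 without replicate 2 at 1 µg/ml or replicate 3 at 50 µg/ml). Among them was the neurotrophin receptor Ngfr at 0.49 ± 0.10, with Sox10 (-0.09) and Snap25 (0.06) not passing. Of 9 red cell genes, Hbb (0.30 ± 0.09) and Epb42 (0.22 ± 0.07) passed, or 22.2% against 24.9% of all genes. Both lost the call without replicate 2 at 50 µg/ml (adjusted p = 0.109 and 0.198), without replicate 1 or 2 at 1 µg/ml and after the repeated quantile normalization. Epb42 lost it also with centring, a robust prior, array weights, the 6 arrays alone, a replicate block or without replicate 3 at 1 µg/ml, replicate 1 at 10 µg/ml or any 1 vehicle array.

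**Figure D4:**
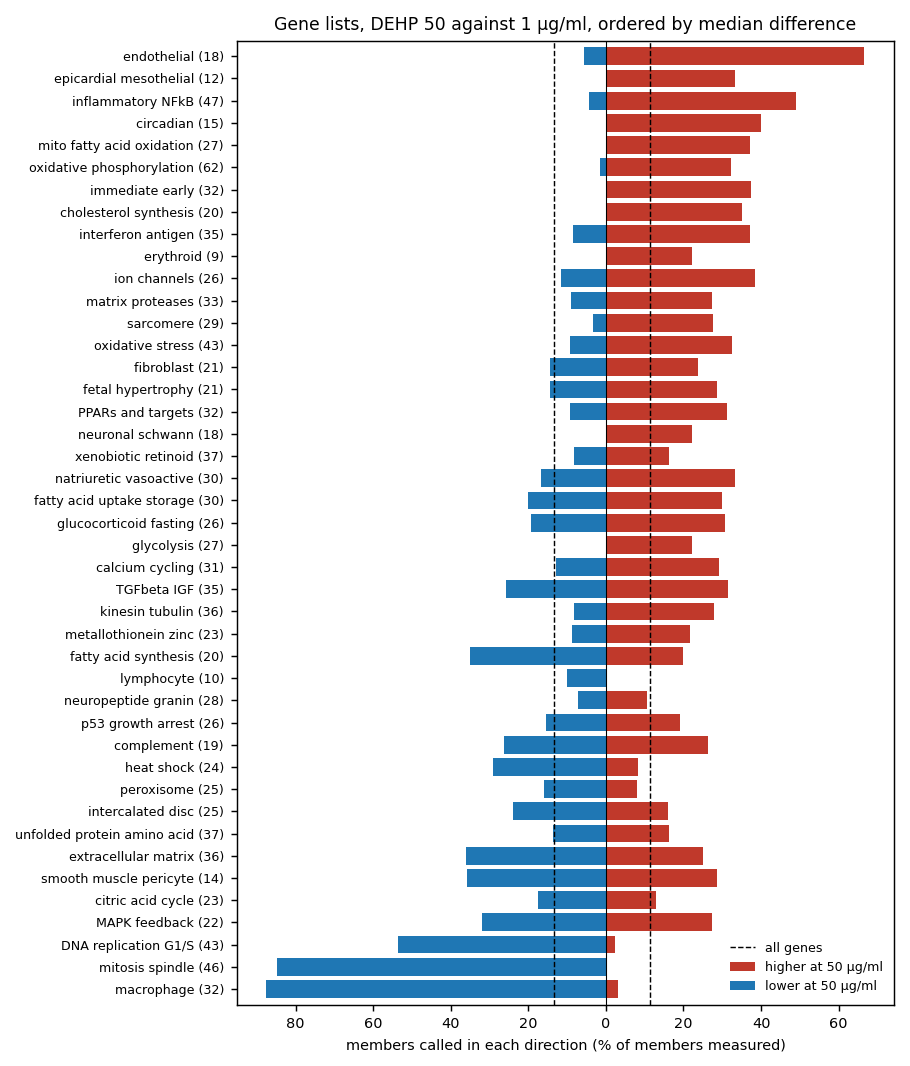
Bars give, for each of 43 gene lists with the number of genes measured in brackets, the percentage of members higher (red, to the right) and lower (blue, to the left) at 50 than at 1 µg/ml, with lists ordered by their median difference. Dashed lines mark the shares over all genes, 11.5% higher and 13.4% lower. The macrophage, mitosis and DNA replication bars reach farthest to the left, and the endothelial bar farthest to the right.

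Part of the inflammatory genes rose at 50 µg/ml, in the arrays where most macrophage genes fell. Of 47 genes of cytokine and NF-κB signalling, the pathway that turns danger signals into gene expression, 23 rose, 2 fell and 22 did not pass, against 11.5% and 13.4% of all genes, with a median of 0.20. The monocyte chemokine Ccl2 read -0.42, -0.60 and -0.34 at 1 µg/ml, 0.10, 0.08 and 0.15 with vehicle and 0.70, 0.68 and 0.83 at 50 µg/ml. It rose by 1.19 ± 0.07 (adjusted p = 2.17e-07), with all vehicle arrays between the groups. The neutrophil chemokine Cxcl1 read -0.10, -0.03 and -0.21 at 1 µg/ml, like the vehicle (-0.11, 0.03 and 0.15), and 1.77, 1.14 and 1.12 at 50 µg/ml, a rise of 1.46 ± 0.15 (0.90 after the repeated normalization). Ackr3, a receptor that scavenges the chemokine CXCL12, rose by 1.36 ± 0.08, from 0.08, 0.05 and 0.26 to 1.65, 1.41 and 1.42 (0.71 after that normalization). The adhesion molecules Vcam1 and Icam1 rose by 1.23 ± 0.14 and 0.64 ± 0.05, and the NF-κB inhibitor Nfkbia, itself a target of the pathway, by 0.44 ± 0.05. Il1rl1, the receptor of interleukin 33, fell by 0.97 ± 0.07, and interleukin 18 (Il18) fell by 1.03 ± 0.10. The cytokines Il6 (0.07), Il1b (0.12) and Tnf (0.25) and the cyclooxygenase Ptgs2 (0.31) did not pass. In 18 of the 25 genes that passed the vehicle mean lay between the groups. That share is near the one over all genes (1191 of 1641 higher and 1331 of 1921 lower).

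Complement genes moved both ways. The early proteases C1r and C1s rose by 0.45 ± 0.05 and 0.57 ± 0.07, and the late components C7 by 0.47 ± 0.07 and C6 as given above. The recognition genes C1qa, C1qb and C1qc, which macrophages make, fell by 1.19, 0.74 and 1.04, the protease inhibitor A2m fell as given above, and the receptor C3ar1 fell by 1.55 ± 0.17, from 0.50, 0.44 and -0.17 to -1.36, -1.29 and -1.21. Under the repeated normalization C3ar1 differed by -0.97 and C1qa by -0.53. The count was 5 higher and 5 lower of 19 (3 lower after the repeated quantile normalization), and C3 (0.37) did not pass. Interferon and antigen presentation genes gave 13 higher and 3 lower of 35, with a median of 0.13. Outside the list, the antiviral gene Oasl read -0.45, -0.36 and -0.12 at 1 µg/ml and 1.22, 0.71 and 1.45 at 50 µg/ml, a rise of 1.43 ± 0.16. The chemokine Cxcl10 rose by 0.84 ± 0.13 and Ifi27 by 0.42 ± 0.08. Irf9, the DNA-binding part of the interferon response complex, fell by 0.49 ± 0.07, from 0.32, 0.49 and 0.45 at 1 µg/ml to -0.04, -0.18 and 0.01, which lay next to the vehicle (-0.02, 0.11 and 0.08) and overlapped it. Mx2 read -0.10, -0.32 and 0.57 at 1 µg/ml and 1.07, 0.57 and 1.23 at 50 µg/ml, so that the groups met at 0.57. It rose by 0.91 ± 0.20, and after the repeated quantile normalization Mx2 differed by 0.53 (adjusted p = 0.0858). The lower interferon genes numbered 1 under that setting or without replicate 1 at 1 µg/ml. The higher ones numbered 4 under that setting, and 8, 7, 8 and 5 without replicate 1 or 2 at 1 µg/ml or replicate 1 or 3 at 50 µg/ml.

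Immediate early genes, which respond to stimuli within minutes without new protein, gave 12 higher and none lower of 32, against 11.5% and 13.4% of all genes, with a median of 0.13. The orphan nuclear receptor Nr4a1 read 0.25, 0.51 and 0.11 at 1 µg/ml and 1.591, 1.511 and 1.503 at 50 µg/ml, and its vehicle arrays, at -0.32, -0.26 and -0.31, lay below both. It rose by 1.25 ± 0.11 (2.37-fold, adjusted p = 1.05e-05), but by 0.55 with an adjusted p of 0.0946 after the repeated quantile normalization, under which 5 genes of the list counted as higher. Nr4a3, its close relative, read 0.16, 0.06 and 0.03 at 1 µg/ml and 0.96, 0.92 and 1.17 at 50 µg/ml, a rise of 0.93 ± 0.08 (0.53 under that normalization). The growth regulator Myc rose by 0.35 ± 0.05. Fos did not pass (-0.40 ± 0.15, adjusted p = 0.0679), and its pattern differed: it read 1.08, 1.28 and 0.75 at 1 µg/ml and 1.03, 0.44 and 0.44 at 50 µg/ml, all above the vehicle (-0.57, -0.44 and -0.55). For 10 of the 12 genes that rose the vehicle mean lay beyond the 1 µg/ml mean, on the side away from 50 µg/ml. Over all genes that rose it lay there for 404 of 1641.

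The Nr4a1 promoter is known for elements of the cyclic AMP response type, which carry it into the fast response, and it is printed with the short form of that element, TGACG, in capitals (CGTCA where it lies on the other strand). The window is chr7:134259888-134260187 on the plus strand of GRCr8 (RefSeq).
Nr4a1 promoter: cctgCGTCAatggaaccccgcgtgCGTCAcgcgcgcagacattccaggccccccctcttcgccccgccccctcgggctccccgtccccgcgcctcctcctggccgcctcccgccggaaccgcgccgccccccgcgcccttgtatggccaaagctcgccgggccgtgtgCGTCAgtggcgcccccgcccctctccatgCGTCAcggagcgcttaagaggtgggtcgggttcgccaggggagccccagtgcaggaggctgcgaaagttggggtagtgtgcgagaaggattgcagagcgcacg
It holds 4 matches, all on the other strand, with starts from -246 to -53. At least 1 match is found in 21.2% of the windows and at least 4 in 0.236%.

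Feedback regulators of MAP kinase signalling moved both ways, with 6 of 22 higher and 7 lower. The phosphatases Dusp8 and Dusp10, which act on stress kinases, rose by 0.33 ± 0.05 and 0.40 ± 0.06, while Spry1, an inhibitor of growth factor receptors, fell by 0.32 ± 0.05 and the G protein regulator Rgs4 by 0.85 ± 0.11. Rgs4 read 0.09, -0.04 and 0.04 at 1 µg/ml and -0.74, -0.84 and -0.89 at 50 µg/ml. Clock genes gave 6 higher and none lower of 15. The period genes Per1 and Per2, repressors within the clock, rose by 0.49 ± 0.06 and 0.54 ± 0.06. Bhlhe40, a further repressor, read -0.40, -0.58 and -0.47 at 1 µg/ml and 0.23, 0.26 and 0.16 at 50 µg/ml, a rise of 0.70 ± 0.09, while its vehicle arrays (0.18, -0.09 and -0.07) lay nearer to 50 µg/ml. The activators Bmal1 (-0.11) and Clock (-0.23) did not pass. Of 26 genes of glucocorticoid and fasting responses 8 rose and 5 fell, and 5 rose without replicate 1 at 1 µg/ml or replicate 3 at 50 µg/ml and 3 after the repeated quantile normalization. The transcription factor Cebpb rose by 0.50 ± 0.06. Txnip, which holds back glucose uptake and thioredoxin, fell by 0.97 ± 0.07, from -0.14, 0.02 and -0.25 to -1.16, -1.09 and -1.03, and by 0.45 under the repeated normalization. The kinase Sgk1 fell by 0.65 ± 0.09, and the steroid target Fkbp5 (-0.04) did not pass.

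Contractile genes rose in part. Of 29 sarcomere genes 8 rose and 1 fell, with a median of 0.09, and the count was 4 after the repeated quantile normalization. Beside Myl7, the ventricular light chain Myl2 read -0.24, -0.34 and -0.18 at 1 µg/ml and 0.30, 0.39 and 0.34 at 50 µg/ml, a rise of 0.60 ± 0.06. Its vehicle arrays (-0.10, -0.34 and -0.22) lay with 1 µg/ml and its arrays at 10 µg/ml (0.10, 0.12 and 0.19) between. The calcium sensor Tnnc1 rose by 0.40 ± 0.07. Myh6, the fast myosin heavy chain that is the main adult form in rat, read 0.02, -0.08 and 0.01 at 1 µg/ml and 0.47, 0.34 and 0.54 at 50 µg/ml, a rise of 0.47 ± 0.08 whose adjusted p was 0.0597 under the repeated normalization. Myh7, the slow heavy chain (0.08 ± 0.08), did not pass, nor did the titin gene Ttn (0.17). Tnni3 rose by 0.27 ± 0.07 and lost its call without replicate 1 at 1 µg/ml (adjusted p = 0.0613) and under the repeated normalization (adjusted p = 0.0572). Myh3, given above, was the 1 sarcomere gene that fell, and 3 fell without replicate 1 of the vehicle.

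Of 21 genes of the fetal and hypertrophic programme 6 rose and 3 fell, and 3 rose after the repeated quantile normalization. Nppa, the atrial natriuretic peptide, read 0.01, -0.01 and 0.06 at 1 µg/ml and -0.23, -0.19 and -0.15 at 50 µg/ml, a fall of 0.21 ± 0.05 whose adjusted p was 0.0753 after that normalization, and Nppb (0.06 ± 0.09) did not pass. Edn1, the vasoconstrictor endothelin 1 and an inducer of muscle cell growth, read 0.42, 0.83 and 0.40 at 1 µg/ml and -0.44, -0.50 and -0.56 at 50 µg/ml, a fall of 1.05 ± 0.10 (adjusted p = 1.16e-05). Its vehicle arrays (0.05, -0.08 and -0.01) lay between, and Edn1 differed from them by 0.56 ± 0.10 at 1 µg/ml and by -0.49 ± 0.10 at 50 µg/ml. Srf, which drives contractile genes, rose by 0.37 ± 0.05. Of 30 genes of natriuretic, vasoactive and renin-angiotensin signalling 10 rose and 5 fell (6 and 3 under the repeated normalization). Corin, the protease that activates the natriuretic peptide, fell by 0.51 ± 0.07 and Agt, angiotensinogen, by 0.60 ± 0.09, while the adenosine receptor Adora2b rose by 0.69 ± 0.09.

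Genes of calcium cycling gave 9 higher and 4 lower of 31. The calcium pump of the cell membrane Atp2b4 read 0.07, 0.19 and -0.02 at 1 µg/ml and -0.62, -0.72 and -0.61 at 50 µg/ml, a fall of 0.73 ± 0.06. Jph2, which ties the calcium store to the cell membrane, rose by 0.25 ± 0.04, the receptor Adra1b by 0.55 ± 0.09 and the store-operated channel Orai1 by 0.38 ± 0.08. The calcium release channel Ryr2 (0.14 ± 0.08) and the pump Atp2a2 (0.12 ± 0.05) did not pass. The count of 9 was 4 after the repeated quantile normalization or without replicate 3 at 1 µg/ml, and the count of 4 lower was 2 without replicate 2 or 3 at 1 µg/ml and 1 without replicate 2 at 50 µg/ml. Of 26 ion channel genes 10 rose and 3 fell, and 6 rose after the repeated normalization. Cacna1g and Hcn4, channels of pacemaker currents, rose by 0.64 ± 0.07 and 0.67 ± 0.09, and the sodium channel subunit Scn3b fell by 0.90 ± 0.12, from 0.39, 0.37 and 0.13 to -0.41, -0.67 and -0.74. Among 25 genes of the intercalated disc and cell adhesion 4 rose and 6 fell (3 without replicate 1 or 3 at 1 µg/ml or replicate 2 or 3 at 50 µg/ml, and 2 after the repeated normalization). Jup, the plakoglobin of desmosomes, rose by 0.48 ± 0.05, and Gja5, connexin 40, read 0.21, 0.35 and 0.16 at 1 µg/ml and -0.58, -0.61 and -0.27 at 50 µg/ml, a fall of 0.73 ± 0.09. Gja1, connexin 43, the main gap junction protein of working heart muscle, differed by 0.21 ± 0.13 and did not pass.

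Of the receptors that DEHP's monoester binds, Ppara (0.06 ± 0.10) and Pparg (0.11 ± 0.08) did not pass, and Ppard rose by 0.16 ± 0.05 (adjusted p = 0.0356). The call of Ppard was lost without any 1 of the 3 replicates at 1 µg/ml or without replicate 3 at 50 µg/ml (adjusted p between 0.0571 and 0.125), with the 6 arrays alone (0.0545) and after the repeated quantile normalization (0.108). In the list of these receptors, their partners and targets, 10 of 32 rose and 3 fell. The count of 10 was 5 without replicate 2 at 1 µg/ml and after the repeated quantile normalization, and 6 without replicate 3 at 50 µg/ml. The coactivator Ppargc1b read -0.19, -0.19 and -0.32 at 1 µg/ml and 0.12, 0.26 and 0.30 at 50 µg/ml, a rise of 0.46 ± 0.07. Lipoprotein lipase (Lpl) rose by 0.48 ± 0.10 and the acyl-CoA synthetase Acsl1 by 0.38 ± 0.09, whose adjusted p was 0.0879 under that normalization. Pdk4, the kinase that shuts glucose carbon out of mitochondria and a classical PPAR target, read 0.40, 0.70 and 0.29 at 1 µg/ml and -0.21, -0.56 and -0.19 at 50 µg/ml, a fall of 0.79 ± 0.12, and it lay above the vehicle at 1 µg/ml by 0.53 ± 0.12. The fatty acid carrier Fabp4 fell by 0.43 ± 0.08. Angptl4 (0.29 ± 0.09) and Cpt1b (0.33 ± 0.11), the muscle form of the transferase that admits fatty acids to mitochondria, passed narrowly. Both lost the call with centring, after the repeated normalization and without replicate 1 at 1 µg/ml (adjusted p = 0.158 and 0.0992), replicate 1 at 10 µg/ml or replicate 1 or 3 at 50 µg/ml. Angptl4 lost it also with array weights and without replicate 1 of the vehicle, replicate 3 at 1 µg/ml or replicate 2 at 50 µg/ml, and Cpt1b without replicate 2 of the vehicle or at 1 µg/ml. Cpt1a (0.11 ± 0.06), the liver form, and the peroxisomal enzyme Ehhadh (-0.02) did not pass.

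Of 27 genes of mitochondrial fatty acid oxidation 10 rose, none fell and 17 did not pass, with a median of 0.14, against 11.5% of all genes higher and 13.4% lower. The short-chain dehydrogenase Acads read -0.17, -0.09 and -0.14 at 1 µg/ml and 0.15, 0.05 and 0.27 at 50 µg/ml, a rise of 0.29 ± 0.07, and Hsd17b10 rose by 0.26 ± 0.06. The count was 5 without replicate 2 at 1 µg/ml or replicate 3 at 50 µg/ml, and 4 after the repeated quantile normalization. Of 62 respiratory chain genes 20 rose, 1 fell and 41 did not pass, with a median of 0.13. The complex I subunit Ndufb8 rose by 0.34 ± 0.05 and the complex III subunit Uqcrc1 by 0.37 ± 0.07, which read -0.17, -0.15 and -0.11 at 1 µg/ml and 0.17, 0.25 and 0.26 at 50 µg/ml. The vehicle mean lay between for 20 of the 21 that passed, against 1191 of 1641 higher and 1331 of 1921 lower over all genes. The count of 20 was 10 after the repeated quantile normalization, and 8, 9, 12 and 9 without replicate 1 or 2 at 1 µg/ml or replicate 2 or 3 at 50 µg/ml. The citric acid cycle list gave 3 higher and 4 lower of 23, or 30.4% called against 24.9% of all genes, with a median of -0.04. The lower count was 1 without replicate 3 at 1 µg/ml or replicate 2 at 50 µg/ml, and 2 without replicate 3 at 50 µg/ml. The dehydrogenase Mdh2 rose by 0.36 ± 0.06. Glycolysis gave 6 higher and none lower of 27, or 22.2% called (3 higher without replicate 2 at 1 µg/ml), with the glucose transporter Slc2a1 up by 0.47 ± 0.11. Peroxisomal genes, the textbook response of rodent liver to PPAR ligands, gave 2 higher and 4 lower of 25, in all 24% against 24.9% of all genes. The 4 lower were 2 without replicate 3 of either dose or after the repeated normalization and 1 without replicate 2 at 50 µg/ml. The 2 higher were 4 with array weights and 1 with centring, a replicate block, the 6 arrays alone, the repeated normalization, single probe set genes or the omission of any 1 array other than replicate 1 of the vehicle, replicate 2 at 10 µg/ml or replicate 2 at 50 µg/ml. Pex3, which builds the peroxisome membrane, fell by 0.44 ± 0.09, from 0.36, 0.33 and 0.43 to 0.01, -0.17 and -0.04, next to the vehicle (0.03, -0.05 and -0.01).

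Cholesterol synthesis genes rose in part, and the cholesterol exporters fell. Of 20 cholesterol synthesis genes 7 rose and none fell, against 11.5% and 13.4% of all genes. Scap, the sterol sensor that escorts the SREBP factors, rose by 0.45 ± 0.05, the reductase Tm7sf2 by 0.57 ± 0.08, the feedback protein Insig1 by 0.53 ± 0.11 and the epoxidase Sqle by 0.31 ± 0.07. Abca1 and Abcg1, which export cholesterol, fell by 1.36 ± 0.09 and 0.63 ± 0.07, and Mylip, which degrades the LDL receptor, fell by 0.51 ± 0.05. These 3 genes are known targets of the liver X receptors, and macrophages express the exporters strongly. Abca1 read -0.06, 0.24 and 0.03 at 1 µg/ml and -1.34, -1.45 and -1.09 at 50 µg/ml. Its difference was -0.75 after the repeated normalization. The part of the macrophage genes in the falls of these exporters was not tested. Ch25h, the cholesterol 25-hydroxylase, read -0.22, -0.11 and -0.50 at 1 µg/ml and -1.09, -1.38 and -1.30 at 50 µg/ml, with both groups below the vehicle (0.50, 0.32 and 0.51). Its fall of 0.98 ± 0.10 became -0.32 with an adjusted p of 0.123 after the repeated quantile normalization. Cyp7b1, which acts on the product of Ch25h, rose by 0.85 ± 0.10. In the list of fatty acid synthesis and sterol export genes 4 rose and 7 fell of 20. Of 30 genes of fatty acid uptake and storage 9 rose and 6 fell (3 after the repeated normalization), with the acyltransferase Dgat2 up by 0.56 ± 0.08 and the phosphatase Lpin2 down, by a difference of -0.41 ± 0.05.

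Stress responses were uneven. Of 43 genes of oxidant defence and production 14 rose and 4 fell, and 7 rose after the repeated quantile normalization. The oxidase Nox4 read 0.06, -0.04 and 0.00 at 1 µg/ml and 0.56, 0.54 and 0.61 at 50 µg/ml, a rise of 0.56 ± 0.06. Hmox1, haem oxygenase 1, rose by 0.53 ± 0.06 and the glutathione transferase Mgst1 by 0.74 ± 0.08. Cybb, the oxidase of phagocytes, which the macrophage list also holds, fell by 1.05 ± 0.08 (-0.59 after the repeated normalization). The Nrf2 target Nqo1 (-0.21) and the glutathione synthesis genes Gclc (-0.08) and Gclm (-0.01) did not pass. Among 37 genes of drug and retinoid metabolism 6 rose and 3 fell, or 24.3% called against 24.9% of all genes, and 3 rose after that normalization. Dhrs3, which turns retinal back to retinol, read -0.06, 0.01 and -0.04 at 1 µg/ml and 0.85, 0.85 and 0.82 at 50 µg/ml, a rise of 0.87 ± 0.04 (0.54 after that normalization), opposite to Aldh1a1, and Cyp26b1, which degrades retinoic acid, fell by 0.60 ± 0.09. The aryl hydrocarbon receptor Ahr fell by 0.51 ± 0.11, and its target Cyp1a1 (0.13) did not pass.

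Some chaperone and unfolded protein response genes lay near the vehicle at 50 µg/ml and away from it at 1 µg/ml. Others did the reverse. Of 24 heat shock genes 7 fell and 2 rose. Dnajb4 read 0.43, 0.36 and 0.38 at 1 µg/ml and 0.18, -0.03 and 0.06 at 50 µg/ml, with the vehicle at 0.01, -0.06 and -0.06. Its fall of 0.32 ± 0.06 lay beside a difference of 1 µg/ml from the vehicle of 0.43 ± 0.06 and of 50 µg/ml of 0.11 ± 0.06. Hsp90aa1 fell by 0.45 ± 0.09 and Stip1, its cochaperone, by 0.30 ± 0.06, whereas Bag3 rose by 0.38 ± 0.05. Bag3 differed from the vehicle by 0.48 ± 0.05 at 50 µg/ml and by 0.10 ± 0.05 at 1 µg/ml. Hsp90aa1 differed from it by -0.17 ± 0.09 and 0.28 ± 0.09. The 2 higher were 4 without replicate 2 at 10 µg/ml. The count of 7 was 4 without replicate 1 or 3 at 1 µg/ml or replicate 2 or 3 at 50 µg/ml. Of 37 genes of the unfolded protein and amino acid response 6 rose and 5 fell (8 without replicate 2 at 10 µg/ml), or 29.7% called against 24.9% of all genes. The pseudokinase Trib3 read -0.51, -0.53 and -0.38 at 1 µg/ml and -0.01, 0.04 and 0.05 at 50 µg/ml, within the range of the vehicle (0.01, 0.16 and -0.06), a rise of 0.50 ± 0.06. Herpud1, of the degradation pathway of the endoplasmic reticulum, rose by 0.38 ± 0.05, and the chaperone Hspa5 (-0.07) and the factor Ddit3 (-0.02) did not pass. Cebpb and Vldlr, also of this list, lay nearer the vehicle at 1 µg/ml. Cebpb differed from it by 0.41 ± 0.06 at 50 µg/ml and by -0.10 ± 0.06 at 1 µg/ml. Vldlr, whose compared doses differed by -0.37 ± 0.06, differed from it by -0.34 ± 0.06 and 0.03 ± 0.06. Of 26 genes of p53 and growth arrest 5 rose and 4 fell. Aen, a nuclease induced by p53, rose by 0.28 ± 0.06, and Gadd45a by 0.33 ± 0.08, and after the repeated normalization Gadd45a differed by 0.215 (adjusted p = 0.115). The lower count of this list was 1 under that setting, 0 without replicate 3 at 1 µg/ml or replicate 2 at 50 µg/ml by limma, and 1 without replicate 1 at 1 µg/ml or replicate 3 at 50 µg/ml.

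Matrix genes and their regulators moved strongly in both directions. Of 36 matrix genes 9 rose and 13 fell. The latent TGF-β binding proteins Ltbp2 and Ltbp1 fell by 0.90 ± 0.08 and 0.62 ± 0.07, while fibromodulin (Fmod) rose by 1.12 ± 0.10 and elastin (Eln) by 0.59 ± 0.07. Ltbp2 read -0.35, -0.04 and -0.21 at 1 µg/ml and -1.13, -1.16 and -1.02 at 50 µg/ml, against 0.13, 0.10 and 0.11 with vehicle, and under the repeated quantile normalization its difference was -0.34. The lower count was 7 without replicate 2 at 1 µg/ml. Of 33 proteases and inhibitors 9 rose and 3 fell (1 without replicate 1 or 3 at 1 µg/ml or replicate 2 at 50 µg/ml). The membrane metalloproteases Mmp14 and Mmp15 rose by 0.47 ± 0.05 and 0.72 ± 0.07 and the gelatinases Mmp2 and Mmp9 by 0.32 ± 0.04 and 0.83 ± 0.10, while the plasminogen activator Plau fell by 0.87 ± 0.09. Mmp9 read -0.66, -0.50 and -0.60 at 1 µg/ml and 0.20, 0.13 and 0.39 at 50 µg/ml, and its vehicle arrays (-0.03, 0.06 and -0.26) lay between. Timp1 rose by 0.24 ± 0.07, with an adjusted p between 0.0814 and 0.104 without replicate 1 or 2 at 1 µg/ml or replicate 2 or 3 at 50 µg/ml. Of 35 genes of TGF-β, BMP and IGF signalling 11 rose and 9 fell. The BMP antagonist Grem1 read 0.37, 0.32 and 0.34 at 1 µg/ml and -1.24, -1.02 and -0.86 at 50 µg/ml, a fall of 1.38 ± 0.09 (-0.88 under that normalization), and the TGF-β target Tgfbi fell by 0.68 ± 0.06. The activin antagonist Fst and the activin subunit Inhba fell by 0.56 ± 0.06 and 0.82 ± 0.09. The IGF binding proteins Igfbp4, Igfbp5 and Igfbp3 rose by 1.08 ± 0.11, 0.85 ± 0.09 and 0.85 ± 0.12. Igfbp3 read -0.40, -0.46 and -0.93 at 1 µg/ml, below every vehicle array (0.16, -0.09 and -0.05), and 0.32, 0.21 and 0.25 at 50 µg/ml. Transport along microtubules gave 10 higher and 3 lower of 36 (5 lower without replicate 2 at 10 µg/ml), with the neuronal kinesin Kif1a up by 0.84 ± 0.06 and Kif5c and Kif3a down by differences of -0.48 ± 0.06 and -0.44 ± 0.07.

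The vehicle and 10 µg/ml arrays, which the contrast left out, place these differences, as a description without a test. Of the 1641 genes higher at 50 µg/ml the vehicle mean lay between the compared means for 1191, beyond the 1 µg/ml mean for 404 and beyond the 50 µg/ml mean for 46. Of the 1921 lower genes these counts were 1331, 469 and 121. With 0 set at the 1 µg/ml mean and 1 at the 50 µg/ml mean, the median position of the vehicle was 0.254 for the genes that rose and 0.336 for those that fell. That of 10 µg/ml was 0.368 and 0.564. The 10 µg/ml mean lay between for 1218 and 1274 genes and beyond the 50 µg/ml mean for 128 and 343. All 3 vehicle arrays lay between the arrays of both doses for 604 genes, 248 higher and 356 lower, and 548 of these had a vehicle position from 0.25 to 0.75.

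The extremes of this placing show different kinds of difference. At 1 µg/ml Npy, C6, Lyz2 and Ly86 lay within 0.1 of the vehicle mean, as did 860 of the genes that rose and 661 of those that fell. At 50 µg/ml the mean was within 0.1 of the vehicle for 295 and 386 genes, and among these Ankrd49, Pdgfb, Klhl7 and Xrcc6 differed most. Ankrd49, an ankyrin-repeat protein, read 0.84, 0.51 and 0.65 at 1 µg/ml, -0.02, 0.09 and -0.12 with vehicle and 0.21, -0.33 and 0.02 at 50 µg/ml, a fall of 0.70 ± 0.13 (adjusted p = 0.00238). Klhl7, an adaptor of a ubiquitin ligase, fell by 0.57 ± 0.11 and Xrcc6, the Ku70 subunit of DNA end joining, by 0.56 ± 0.11, both with 1 µg/ml above the vehicle (0.56 ± 0.11 and 0.47 ± 0.11). At 10 µg/ml replicate 2 was the lowest array of its group in both: Xrcc6 read -0.16, -0.46 and -0.06 and Klhl7 -0.11, -0.35 and -0.02.

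**Figure D5:**
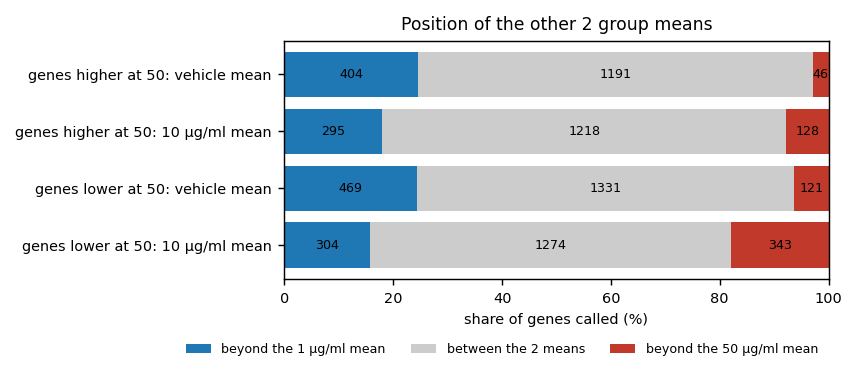
Bars split the genes that were higher (upper pair) or lower (lower pair) at 50 than at 1 µg/ml by where the mean of the vehicle arrays or of the 10 µg/ml arrays lay, as a percentage of the genes called, with the number of genes printed. Grey, between the 2 means, is the largest part of each bar (1191, 1218, 1331 and 1274 genes), and blue, beyond the 1 µg/ml mean, is larger than red except for the 10 µg/ml mean of lower genes (304 against 343).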

How the data were processed

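RNA from 12 cultures (4 groups of 3; cRNA from 5 µg of total RNA) was hybridised to 1 Affymetrix array each. The authors used RMA, per the submitters' processing notes, which name no version. The ratio they deposited is linear and sets each array against the median of the 12 for that probe set, as shown by the midpoint of the 2 central log values, which was 0 within 1e-06 for every probe set. Ratios ran from 0.165 to 12.2, and levels and the distance to background are lost. Log2 ratios were averaged over the probe sets of a gene, using the 15097 of 27342 probe sets with 1 symbol in the platform annotation (323 had several, 11922 none; 15067 were found in the GRCr8 table). limma 3.58.1 in R 4.3.3 was fitted to all 12 arrays in 4 groups, with 8 residual degrees of freedom, two-sided tests and Benjamini-Hochberg adjustment over 14324 genes or over all probe sets. The number of arrays limits the precision: the median residual SD of a gene was 0.082 on the log2 scale. An exact permutation test of 3 arrays against 3 cannot go below p = 0.1. The arrays of a group are biological replicates per the series description but of 1 litter, so their spread, on which the p-values rest, is that of cultures of the same litter.

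The members and the 43 gene lists (1205 of 1421 entries measured) were chosen with earlier results of these data known. Genes were named by rule from those past the threshold: the 12 largest rises and 12 largest falls whose groups did not overlap, up to 4 members of each list by p, and 4 each for which all vehicle arrays lay between the groups, the 50 µg/ml mean lay within 0.1 of the vehicle or the 1 µg/ml mean did. A panel of contraction, PPAR and matrix genes and the cell type markers were read whether or not they passed. Not every marker has its value given above. Other list members given as examples were chosen after their values were seen. The fit was run on simulated data with known changes, and its outcome there is not given here. Alternatives were quantile normalization applied again, centring, other prior variances, array weights, the 6 arrays alone, the replicate number as a block, a minimum fold of 1.2, other summaries of probe sets and the omission of each array.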

Additional observations from a re-analysis of the deposited data

How the results depend on the processing

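The count of 3562 genes (1641 higher, 1921 lower) became 2155 (930 and 1225) after quantile normalization was applied again and 372 (173 and 199) when a change beyond 1.2-fold was required, and the 4869 probe sets became 2810 and 424. Over the omissions of 1 array the counts ran from 2432 to 4370 genes, from 1178 to 2001 higher, from 1161 to 2369 lower and from 2949 to 6328 probe sets. Probe sets numbered 3201, 3186 and 2949 without replicate 2 or 3 at 1 µg/ml or replicate 2 at 50 µg/ml. The cause was not tested. Centring, other prior variances, array weights and the 6 arrays alone kept each of these counts within 1.5 times. Other summaries of probe sets did so for the gene counts, to which alone they apply. Deviations of same-numbered arrays at 1 and 50 µg/ml correlated at -0.11, 0.04 and -0.05. Over all pairs of groups such correlations ran from -0.233 (vehicle with 10 µg/ml, replicate 3) to 0.431 (10 with 50 µg/ml, replicate 2). These values do not settle whether the numbers pair the cultures. With a replicate block 3612 genes and 4839 probe sets passed. Of 184 named genes that passed, 167 did so in all 12 omissions and 94 under every setting run. The requirement of a change beyond 1.2-fold lost 86 of the 184 calls and the repeated normalization 21. Of these 184 genes 0 changed sign. No alternative could leave out dim probe sets, since ratios hold no level, and signal over background was not analysed here.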
